A study of Mus musculus with 16 samples.

Results

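Small leucine-rich proteoglycans are secreted proteins built on a curved run of leucine-rich repeats, most of them carrying dermatan, chondroitin or keratan sulfate chains, that bind collagen in the extracellular matrix. They set how collagen fibrils grow in width and join, and several of them also bind growth factors such as TGF-beta. In muscle, fibroblasts of the connective tissue sheaths make decorin, biglycan, lumican and osteoglycin, while keratocan, fibromodulin and chondroadherin are known best from cornea, cartilage and tendon, the tissue that joins muscle to bone.

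The 10 genes described here are Kera, Fmod, Chad, Lum, Dcn, Bgn, Ogn, Omd, Prelp and Aspn, of 22180 genes with a named probe set on the array. A probe set, a group of short probes summed to 1 value, was used if the platform annotation gave it exactly 1 gene symbol, and where a gene had several the one taken was selected on its mean over all 16 arrays, the brightest. That mean, blind to group, is the measured value used in the choice. The genes themselves were listed by family. By known tissue 3 were set apart as tendon-rich members (Kera, Fmod, Chad). Genes and split were settled with earlier results of these data known, so they are not independent of the values below. The remaining 7 are called general fibroblast members, a name for the rest and not a measured trait. All 10 lay above the array median on 16 of 16 arrays, so a filter on dim probe sets removed none of them.

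RNA came from whole gastrocnemius, a calf muscle, of 16 male FVB/n mice aged 16 weeks, with 1 array per mouse. In the deletion group (n = 8) Mx1-Cre had removed floxed Foxo1, Foxo3 and Foxo4, genes of FoxO transcription factors. The control group (n = 8) consisted of Cre-negative littermates with the same floxed alleles, which the labels call wild type. All mice had 3 injections of pI:pC, an RNA mimic that switches the interferon-responsive Mx1 promoter on, at 4 to 5 weeks of age. From 7 to 8 weeks of age all mice ate a high-fat diet (58% fat, 25.5% carbohydrate, 16.4% protein) for 8 weeks. The labels call the deletion endothelial directed, but the Mx1 promoter is not limited to endothelium, and Cre itself was carried by the deletion mice alone, so the effects of Cre and of FoxO loss cannot be told apart. The labels also call these mice FoxO1,3,4 knockdown. The means of 10 muscle fibre markers lay between 12.39 and 12.55 log2 units in deletion mice and between 11.97 and 12.59 in controls. Foxo1, Foxo3 and Foxo4 transcripts differed by 0.07, 0.50 and -0.24 without passing the threshold (limma adjusted p = 0.804, 0.0762 and 0.236). The position of their probes relative to the floxed exons was not analysed here, so these values check nothing about the deletion.

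Kera, Fmod and Chad were lower in deletion mice, and none of the 7 general fibroblast members passed the threshold, an adjusted p under 0.05 in limma's test over all 13601 genes above the filter. Kera fell by 1.19 log2 units, a level 56.2% below the controls', Fmod fell by 0.49 and Chad fell by 0.48. Over all genes tested 0.301% were lower past this threshold and 1.53% were higher, 41 and 208 genes. With each array centred on its median the split was 67 lower and 126 higher, and after a further quantile normalization 59 and 155. Of the 10 proteoglycan genes 3 were lower and none higher under each of these scalings. The median difference was -0.49 for the 3 tendon-rich members and 0.0078 for the 7 general ones, against 0.00075 for all genes tested. As the split was made with earlier results known, this contrast only describes the values. In whole muscle, fewer cells of a type and less RNA per cell cannot be told apart.

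**Figure D1:**
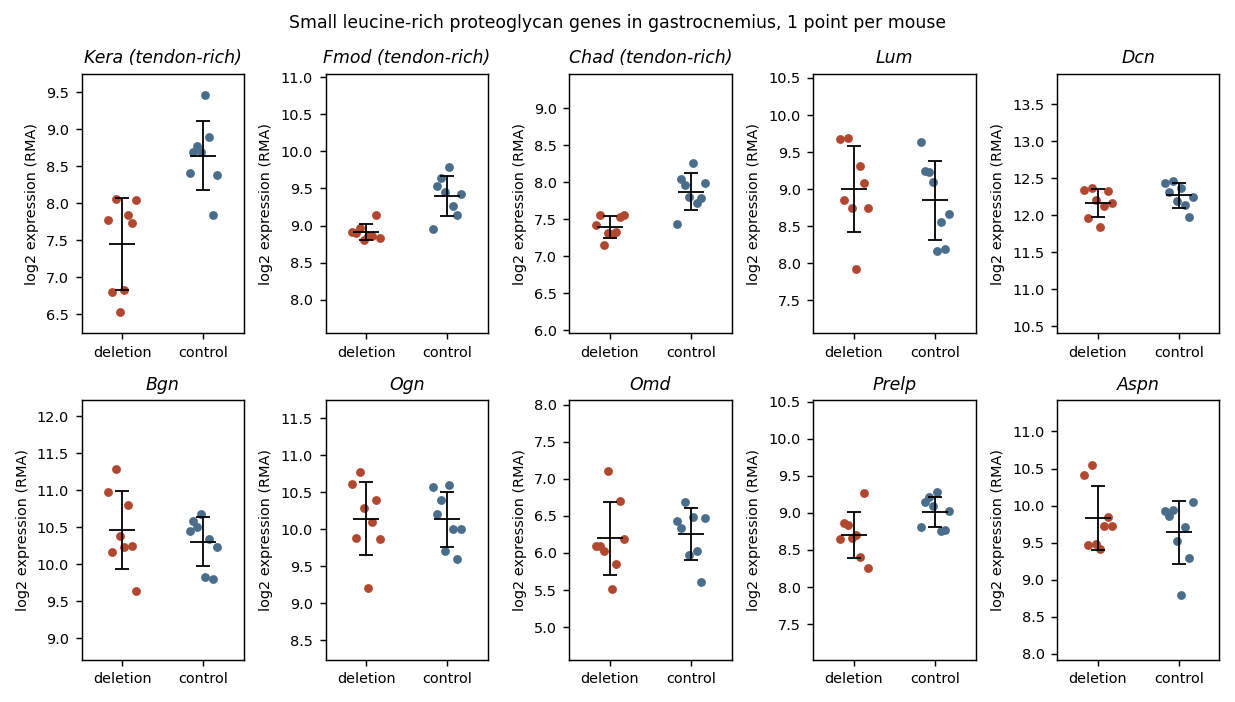
Log2 expression of the 10 proteoglycan genes, 1 point per mouse, deletion mice left and controls right in each panel, with a horizontal bar at the mean and an error bar of 1 SD (n = 8 each). Every vertical axis spans the same number of log2 units; Kera, Fmod and Chad sit lower in deletion mice, and the other panels overlap widely apart from Prelp, where 5 of 8 deletion mice lie below every control.

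Kera encodes keratocan, a keratan sulfate proteoglycan of cornea and tendon. It read between 6.53 and 8.06 with a median of 7.75 in deletion mice, and between 7.85 and 9.46 with a median of 8.69 in controls. The groups overlapped through control 7, at 7.85, and 5 of 8 deletion mice lay below every control. The difference of -1.19 had a 95% interval of -1.70 to -0.68 (SE 0.24, limma adjusted p = 0.0189, exact permutation p = 0.000622 before adjustment). The spread within the deletion group was uneven, since numbers 2, 4 and 5 stood apart at 6.80, 6.53 and 6.83 while the other 5 lay between 7.73 and 8.06.

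Fmod encodes fibromodulin, which binds fibrillar collagen and takes part in the control of its crosslinking. It read between 8.80 and 9.14 with a median of 8.88 in deletion mice, and between 8.96 and 9.79 with a median of 9.44 in controls. Of the deletion mice 6 of 8 lay below every control, and control 1, at 8.96, was the lowest control. The difference was -0.49 with a 95% interval of -0.70 to -0.28 (SE 0.10, limma adjusted p = 0.0175, exact permutation p = 0.000777 before adjustment). Fmod was more even among deletion mice, at 8.91 ± 0.11, than among controls, at 9.40 ± 0.27 (SD, n = 8 each), a difference in spread that was not tested. A second, dimmer Fmod probe set read 6.87 ± 0.17 in deletion mice and 7.37 ± 0.33 in controls (SD, n = 8 each), a difference of -0.50.

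Chad encodes chondroadherin, a collagen- and integrin-binding protein of cartilage, tendon and bone that lacks the long sulfated chains of its relatives. It read between 7.15 and 7.56 with a median of 7.38 in deletion mice, and between 7.44 and 8.26 with a median of 7.88 in controls. As for Fmod the lowest control was mouse 1, at 7.44, and 5 of 8 deletion mice lay below it. The difference was -0.48 with a 95% interval of -0.68 to -0.27 (SE 0.10, limma adjusted p = 0.0205, exact permutation p = 0.000622 before adjustment). The groups overlapped for each of the 10 genes, where 0.11% of all genes tested had every deletion mouse below every control.

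Because these 3 genes were lower together, their upstream sequences are shown, as RefSeq gives them in build GRCm38.p6, 250 bases 5′ to 3′ ending just before the annotated start, all on the plus strand. Capitals mark matches on either strand to CANNTG, the E-box that basic helix-loop-helix factors bind, among them the tendon factor scleraxis, and to the TATA box TATAAA.
Kera, chr10:97606955-97607204: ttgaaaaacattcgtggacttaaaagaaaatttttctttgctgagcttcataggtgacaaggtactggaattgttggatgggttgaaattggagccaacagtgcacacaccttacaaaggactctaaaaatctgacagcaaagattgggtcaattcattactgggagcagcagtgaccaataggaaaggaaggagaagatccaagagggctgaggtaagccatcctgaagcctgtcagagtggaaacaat
Fmod, chr1:134037004-134037253: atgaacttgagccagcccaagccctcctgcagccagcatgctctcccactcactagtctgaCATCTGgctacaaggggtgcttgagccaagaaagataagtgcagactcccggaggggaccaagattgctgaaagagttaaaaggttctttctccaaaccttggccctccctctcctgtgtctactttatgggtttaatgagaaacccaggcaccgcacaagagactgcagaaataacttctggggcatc
Chad, chr11:94564797-94565046: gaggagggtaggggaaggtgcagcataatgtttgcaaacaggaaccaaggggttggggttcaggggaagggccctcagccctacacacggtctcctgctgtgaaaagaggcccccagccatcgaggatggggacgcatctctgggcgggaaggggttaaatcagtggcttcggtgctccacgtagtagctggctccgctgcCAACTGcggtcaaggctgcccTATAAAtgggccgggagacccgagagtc
The window of Kera held no match to either. That of Fmod held 1 E-box, 189 bases before the start, and that of Chad 1 E-box 49 bases and 1 TATA box 28 bases before it, with no overlap between the 2 motifs. Of the general members with a window, Ogn held 3 E-boxes, Bgn 1 and Aspn 1, while Omd and Prelp held none. Ogn and Aspn each had 2 matches to the TATA box. An E-box stood in 66.2% and a TATA box in 12.4% of the 32851 windows of this length in the table. The FoxO site GTAAACA, searched on both strands, stood in 3.17% of all windows and in none of those of the 8 members in the table (Kera, Fmod, Chad, Bgn, Ogn, Omd, Prelp and Aspn). A missing match says only that these letters are not in this window.

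Of the general fibroblast members, decorin, biglycan and asporin form 1 branch of the family. Dcn, the decorin gene, a regulator of fibril width that also binds TGF-beta, read 12.17 ± 0.19 in deletion mice and 12.27 ± 0.16 in controls (SD, n = 8 each), a difference of -0.10 with a 95% interval of -0.28 to 0.09. Bgn, the biglycan gene, read 10.46 ± 0.53 in deletion mice and 10.30 ± 0.33 in controls (SD, n = 8 each), a difference of 0.16 (-0.25 to 0.57). Aspn, which encodes asporin, a collagen-binding protein with a stretch of aspartates, differed by 0.19 (-0.20 to 0.59). The interval for Dcn was the narrowest of the 7 and lies above the whole interval of Kera, though its low end reaches into that of Chad. The intervals of Lum, Ogn, Omd and Prelp overlap those of Fmod and Chad, while those of Bgn and Aspn do not.

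Lum, Prelp and Omd belong to the same branch as Kera and Fmod. Lum, the gene of lumican, a keratan sulfate proteoglycan of cornea and connective tissue, differed by 0.15 with a 95% interval of -0.36 to 0.67. Deletion mice ranged from 7.92 to 9.69 and controls from 8.17 to 9.63. Omd, the gene of osteomodulin, known from bone, differed by -0.06 (-0.46 to 0.34). Ogn, the gene of osteoglycin, from another branch of the family, differed by 0.01 (-0.40 to 0.42), a value so near 0 that its sign turned under array centring.

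Prelp, which encodes a protein that links collagen to basement membranes, lay between the 2 sets. It read between 8.25 and 9.27 with a median of 8.68 in deletion mice, and between 8.75 and 9.28 with a median of 9.06 in controls. Of the deletion mice 5 of 8 lay below every control, and deletion mouse 7, at 9.27, lay near the top of the control range. The difference of -0.31 (95% interval -0.56 to -0.05) did not pass (limma adjusted p = 0.201, exact permutation p = 0.0376 before adjustment). A dimmer Prelp probe set differed by -0.40, at 5.01 ± 0.29 in deletion mice and 5.41 ± 0.15 in controls (SD, n = 8 each). On it 6 of 8 deletion mice lay below every control. With its probe sets averaged Prelp differed by -0.35 (limma adjusted p = 0.0775). The dimmer probe set of Bgn differed by 0.09.

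**Figure D2:**
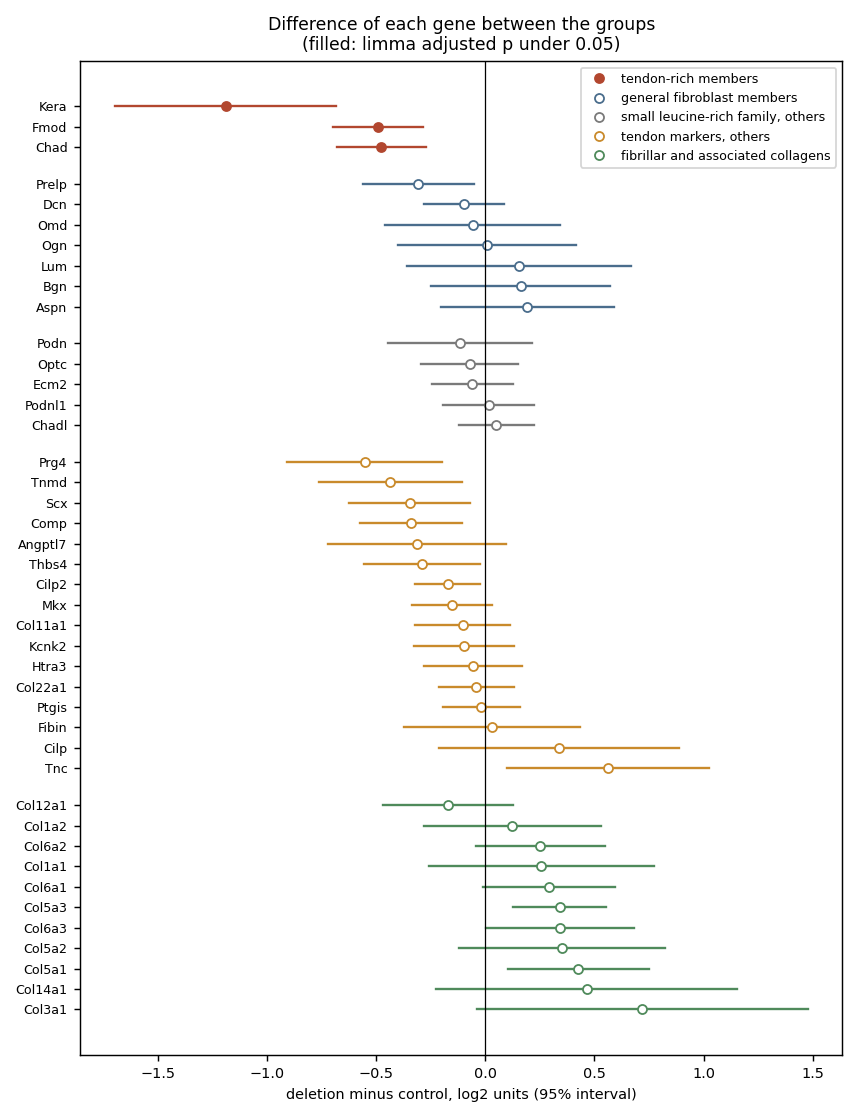
Difference between deletion and control mice for each gene in log2 units (horizontal axis), with 95% intervals from limma, for the proteoglycan members, their tested relatives, other tendon markers and collagens; filled points have an adjusted p under 0.05. The 3 filled points are Kera, Fmod and Chad, at -1.19, -0.49 and -0.48.

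Most members lie in gene clusters, and on chromosome 10 neighbours differed in how far they moved. In the GRCm38.p6 gene order of chromosome 10, Dcn, Lum, Kera and the relative Epyc are consecutive coding genes. Optc, Prelp and Fmod are consecutive on chromosome 1, and Ecm2, Aspn, Omd and Ogn on chromosome 13, while Chad on chromosome 11 and Bgn on the X chromosome stand alone. On chromosome 10, Kera differed by -1.19, Dcn by -0.10 and Lum by 0.15. On chromosome 13, Ecm2, Aspn, Omd and Ogn differed by -0.06, 0.19, -0.06 and 0.01, none past the threshold. Within each mouse, the Kera value minus the Lum value was -1.55 ± 0.51 in deletion mice and -0.21 ± 0.74 in controls (SD, n = 8 each). This contrast differed by -1.34 between the groups, with 6 of 8 deletion mice below every control (exact two-sided permutation p = 0.000466, 0.000699 after adjustment over 3 pairs). Kera minus Dcn differed by -1.09, with 7 of 8 deletion mice below every control (exact p = 0.000311, adjusted 0.000699). Fmod minus Prelp differed by -0.18, which missed the threshold (exact p = 0.0563, adjusted 0.0563). These 3 pairs of neighbours were chosen after their values were seen.

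The other leucine-rich relatives gave no call. Of 8 listed, 5 were tested, with 0 of 5 past the threshold and a median difference of -0.06. Podn, Optc and Ecm2 differed by -0.12, -0.07 and -0.06, and Chadl and Podnl1 by 0.05 and 0.02. Epyc, the epiphycan gene next to Kera, lay above the array median on 1 of 16 arrays and Nyx on 0 of 16, so neither was tested, and Tsku was not analysed here.

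Among mice of the same group, some members varied closely together. With group means taken out, Dcn followed Ogn most closely of all 45 pairs of members (Pearson r = 0.92, 16 mice), and Lum followed Aspn (0.78), Bgn (0.75) and Dcn (0.73). Fmod followed Chad (0.77) and Prelp (0.74). The 21 pairs with 1 member of each set had a median r of 0.22, from -0.46 for Chad and Bgn to 0.74 for Fmod and Prelp. The median was 0.45 for the 21 pairs of general members (-0.03 to 0.92) and 0.51 for the 3 tendon-rich pairs (0.28 to 0.77). Kera correlated at 0.57 with Dcn and 0.52 with Ogn, against 0.51 with Fmod and 0.28 with Chad. All values of a mouse come from 1 array, so pairs share its RNA quality and scaling.

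**Figure D3:**
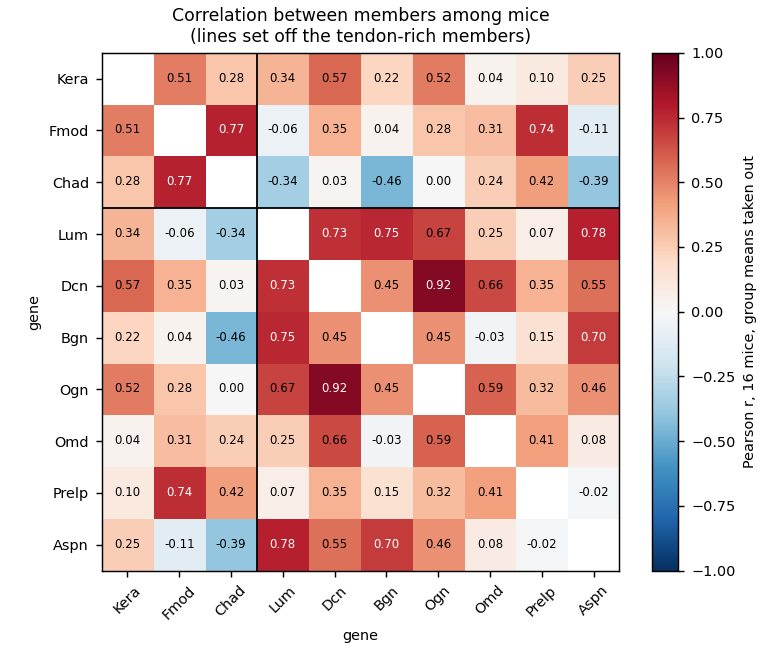
Pearson correlation between the 10 genes over 16 mice after each group's mean was taken out; each cell is a pair, coloured from -1 to 1, and black lines set off Kera, Fmod and Chad. Dcn and Ogn reach 0.92, Fmod and Chad 0.77, and Chad and Bgn -0.46.

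Of 8 pairs examined with permutation tests within groups, Kera and Tnmd were tied most closely. Tnmd encodes tenomodulin, a membrane protein of tendon cells. Its correlation with Kera was r = 0.90 and rho = 0.77 over 16 mice (permutation p = 0.0001 and 0.00143; adjusted over 8 pairs 0.0008 and 0.0114). It was 0.96 in the 8 deletion mice and 0.78 in the 8 controls (exact permutation p = 0.00154 and 0.0176). Without the 2 mice whose Kera, with group means taken out, lay farthest from its median it was 0.90. Deletion mice 2, 4 and 5, lowest in Kera, were also lowest in Tnmd, at 7.26, 7.21 and 7.20. The other 5 deletion mice read between 7.73 and 8.18. Leaving out 2 mice cannot take out all of these low mice. Deletion mice 2, 4 and 5, and also 1, were those with Alb above 10 log2 units, described below. Tnmd itself differed by -0.43 between the groups (SE 0.16, limma adjusted p = 0.163), at 7.71 ± 0.43 in deletion mice and 8.14 ± 0.24 in controls (SD, n = 8 each).

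Fmod and Chad correlated at r = 0.77 (permutation p = 0.00277, adjusted 0.00739), but rho was 0.45 (permutation p = 0.0961, adjusted 0.154). Without the 2 mice whose Fmod, with group means taken out, lay farthest from its median r was 0.43. Thus the relation rests in part on those mice. It was 0.18 in deletion mice and 0.92 in controls (exact permutation p = 0.685 and 0.00223), and the difference between these was not tested. Lum and Dcn gave r = 0.73 and rho = 0.63 (permutation p = 0.00239 and 0.0145, adjusted 0.00739 and 0.0537). For Kera and Fmod r was 0.51 (permutation p = 0.0234, adjusted 0.0375) and rho 0.50 (permutation p = 0.0631, adjusted 0.126), and r was 0.40 without the 2 farthest mice. Fmod and Tnmd gave 0.48 and 0.61 (permutation p = 0.0169 and 0.0202, adjusted 0.0338 and 0.0537), and 0.32 without the 2 farthest mice. Kera and Dcn gave 0.57 and 0.40 (permutation p = 0.0306 and 0.141, adjusted 0.0408 and 0.188). The tie of Kera to its neighbour Lum was weak over 16 mice, at 0.34 and 0.15 (permutation p = 0.219 and 0.592, adjusted 0.250 and 0.677). Within groups, r for Kera and Lum was 0.645 in deletion mice and -0.09 in controls (exact permutation p = 0.0862 and 0.835). Kera and Chad were also weakly tied over 16 mice, at 0.28 and 0.10 (permutation p = 0.268 and 0.749, adjusted 0.268 and 0.749).

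**Figure D4:**
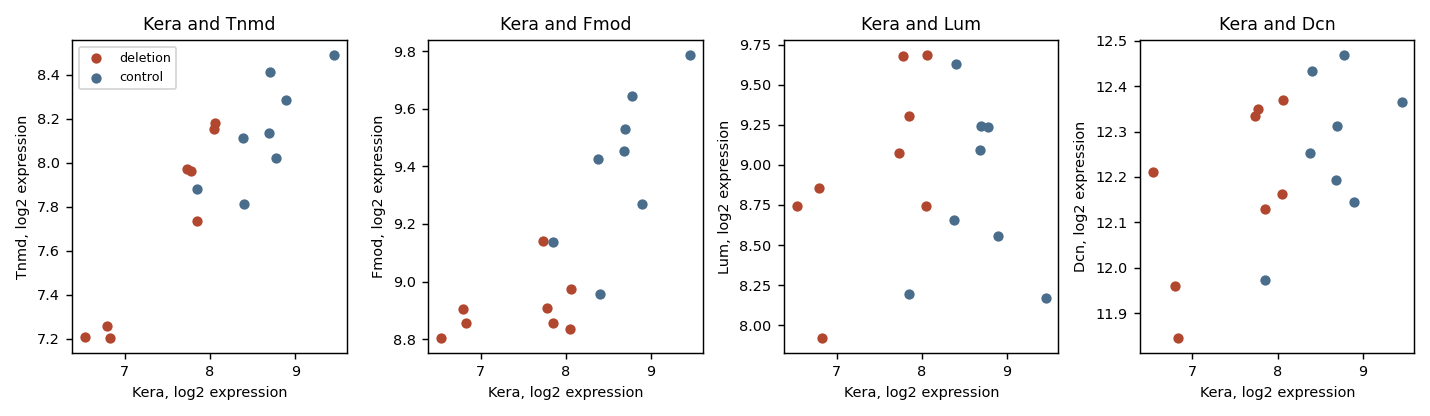
Log2 expression of Kera (horizontal axes) against Tnmd, Fmod, Lum and Dcn (vertical axes), 1 point per mouse, deletion mice in red and controls in blue. Kera and Tnmd rise together within each group, with deletion mice 2, 4 and 5 lowest in both, but the groups do not share 1 line throughout. Deletion mouse 3, with Tnmd at 8.18, read 8.06 in Kera, while control 4, with Tnmd at 8.14, read 8.69. Control 7 (Tnmd 7.88, Kera 7.85) lay near deletion mouse 1 (7.96 and 7.77). Kera and Lum correlated at 0.645 in deletion mice and -0.09 in controls.

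Outside the members, the genes most like Kera over 16 mice with group means taken out were Tnmd (r = 0.90), the transcription factor gene Etv2 (0.85), Tmem59l (0.81) and Gpx7 (0.80). Those most like Dcn were Pdgfc, which encodes a platelet-derived growth factor (0.90), Tfpi, a coagulation inhibitor gene (0.88), Efemp1, which encodes a fibulin of the matrix (0.86), and Mme, the neprilysin gene (0.86). These are the highest values out of all tested genes, given as a description. No gene stood in both sets of 4. The 4 genes most like Fmod and the 4 most like Chad, each set with r up to 0.80, included none of the tendon markers described below.

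Tendon markers outside the family did not pass the threshold, and 13 of 16 differences were below 0. Of the 16 tested, 0 passed, 6 were lower and 1 was higher at an unadjusted p under 0.05, where 6.82% of all genes tested were lower and 10.5% higher at that level. Their median difference was -0.13, against 0.00075 for all genes tested. The list mean per mouse lay between 6.76 and 7.05 in deletion mice and between 6.82 and 7.27 in controls. Prg4, the lubricin gene of tendon and joint surfaces, differed by -0.55 (SE 0.17, limma adjusted p = 0.106), Comp, a cartilage and tendon matrix gene, by -0.34 (SE 0.11), and Scx, the scleraxis gene, by -0.35 (SE 0.13, limma adjusted p = 0.185). Mkx, the gene of the tendon factor Mohawk, differed by -0.15. On the other side were Tnc, a matrix gene of tendon and of injured tissue, at 0.56 (SE 0.22, limma adjusted p = 0.196), and Cilp at 0.34. How much tendon each sample held, and its part in the values of Kera, Fmod and Chad, was not tested. Of 16 cartilage markers, 8 lay above the filter and were tested, and 0 passed, with Sox9 at 0.20, Col9a2 at -0.19 and Sox6 at -0.12. Of the 8 differences 5 were below 0 and 3 above. Snorc lay above the array median on 7 of 16 arrays and was not tested. It read 4.34 ± 0.12 in deletion mice and 4.65 ± 0.11 in controls (SD, n = 8 each), where array medians lay between 4.43 and 4.61. Col2a1, the main cartilage collagen gene, lay above the array median on 16 of 16 arrays and differed by 0.05, while Acan, Hapln1 and Cnmd, which also mark cartilage cells, did so on 0 of 16 arrays.

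Collagens, which these proteoglycans bind, gave no call. Of 11 tested, 0 passed, and 10 of the 11 differences were above 0, with a median of 0.34 against 0.00075 for all genes tested. Col5a3 and Col5a1, minor fibrillar collagens that start fibrils, differed by 0.34 and 0.43 (limma adjusted p = 0.0964 and 0.164), and Col12a1, a fibril-associated collagen abundant in tendon, by -0.17. Among 21 tested genes of collagen processing, 1 rose and none fell, where 1.53% of all genes tested were higher. It was Tll1, which encodes a tolloid protease of the family that trims procollagen, at 0.84 (SE 0.13, limma adjusted p = 0.00406). Plod1, a lysyl hydroxylase gene, differed by 0.34, P3h3, a prolyl hydroxylase gene, by -0.23, and Pcolce2 by -0.13.

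Of the enzymes that build the sulfated chains, single genes were higher. Among 18 tested genes of chondroitin and dermatan sulfate synthesis 1 rose, Csgalnact1, which starts chondroitin chains, at 0.50 (SE 0.10, limma adjusted p = 0.0140). Dsel, a dermatan sulfate epimerase gene, differed by 0.29, Chst13 by -0.29 and Csgalnact2 by -0.11. Among 10 tested genes of keratan sulfate synthesis, the chain type of keratocan, lumican and fibromodulin, 1 rose, Chst2, a sulfotransferase gene, at 0.54 (SE 0.12, limma adjusted p = 0.0237), while B3gnt2 differed by 0.22 and Chst5 by -0.04. Of 15 tested genes of the TGF-beta pathway 1 rose, Tgfb1, the ligand that decorin and fibromodulin bind, at 0.53 (SE 0.12, limma adjusted p = 0.0287). The receptor gene Tgfbr3 differed by 0.28, and the latency protein genes Ltbp2 and Ltbp3 by -0.15 and -0.11. Over all genes tested 1.53% were higher and 0.301% lower, so the absence of a fall in these 3 lists is what that share gives.

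Markers of other cell types in whole muscle were counted in the same way, against 1.53% higher and 0.301% lower among all genes tested. Fibroblast markers had 1 of 18 higher and 0 lower, with list means between 7.25 and 7.90 in deletion mice and between 7.14 and 7.70 in controls. The 1 was Lamb1, a laminin gene also made by other cells, at 0.49, while Cd34 differed by 0.38, Fbln1 by -0.25 and Pi16, a marker of resident fibroblasts, by -0.20. Endothelial markers had 7 of 10 higher (list means 7.74 to 8.27 in deletion mice and 7.41 to 7.79 in controls), macrophage markers 3 of 9 (6.27 to 7.64 in deletion mice and 5.90 to 6.52 in controls), and adipocyte markers 1 of 7 (6.08 to 8.09 in deletion mice and 6.02 to 7.05 in controls). None of 6 Schwann cell markers (5.80 to 7.15 in deletion mice and 5.74 to 7.09 in controls), 10 muscle fibre markers or 6 liver transcripts (4.63 to 8.78 in deletion mice and 4.78 to 8.61 in controls) passed. The part of these cells in the values of the proteoglycan genes was not tested.

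Liver transcripts varied widely between mice. Alb, the albumin gene, read above 10 log2 units in deletion mice 1, 2, 4 and 5 and in controls 2 and 7. In those 4 deletion mice Kera read 7.77, 6.80, 6.53 and 6.83, and in the other 4 between 7.73 and 8.06, while in controls 2 and 7 it read 8.70 and 7.85 and in the other controls between 8.38 and 9.46. Without these 6 mice, 4 deletion and 6 control mice remained and 0 members passed, where 7 of all genes tested did. Kera then differed by -0.84 (limma adjusted p = 0.175), and Fmod and Chad by -0.47 each (limma adjusted p = 0.272 and 0.280), close to the values over all mice. This selection of mice was made after the data were seen.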

How the data were processed

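The deposited log2 values per probe set were made by the authors with oligo's RMA, as the submitters' processing notes say. RMA corrects background, sets arrays to a common distribution and summarises probes. Tool versions, the build and scan dates were not given in the sources used here. That the scale is log2 was read from the values. The labels' protocols give RNeasy extraction and 250 ng of RNA per array. Arrays carry no counts, so the number of mice limits the precision.

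Of 41345 probe sets, 23521 had 1 gene symbol. Symbols were updated to GRCm38.p6 through gene numbers. Genes above the array median on at least 8 of 16 arrays were tested with limma 3.58.1 in R 4.3.3. Group was the only term, and tests were two-sided, with Benjamini-Hochberg adjustment over 13601 genes and all 16 mice. The procedure was tested on simulated data with independent noise for each gene, so variation shared between genes was not covered. Exact permutation tests ran over all 12870 splits, the smallest p being 0.000155. Correlations used 100000 permutations within groups. The main fit did not pair same-numbered mice (see the closing section).

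The members, gene lists, tests and alternatives were chosen with earlier results of these data known, so that no p-value here is independent evidence for the choice. Named genes were the members, Foxo1, Foxo3, Foxo4, the listed relatives, Tnmd, Scx, Mkx, in each list described up to 2 genes per direction with the smallest p, and the 4 genes most correlated with Kera and with Dcn. Col12a1, Lamb1 and other names follow that rule. Acan, Hapln1, Cnmd, Col2a1, Snorc and Alb were named after their values were seen. Markers of endothelium, macrophages, adipocytes, Schwann cells, muscle fibres and liver are given by list, with counts and ranges of list means.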

Additional observations from a re-analysis of the deposited data

How the results depend on the processing

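Kera, Fmod and Chad passed the threshold, and no other member did, without a filter, with a filter at the 75th percentile, with centred or quantile-normalized arrays, with probe sets averaged per gene, with a trended and robust variance, with array weights, at an adjusted p under 0.10 and in all 16 fits without 1 mouse, whose count of members was 3 to 3. In those 16 fits Kera ran from -1.30 to -1.06 (adjusted p up to 0.0417). Fmod ran from -0.55 to -0.44 (up to 0.0381) and Chad from -0.54 to -0.42 (up to 0.0449). Prelp ran from -0.39 to -0.24 (limma adjusted p from 0.0784, without deletion mouse 7, to 0.337). With probe sets averaged it was at -0.35 (limma adjusted p = 0.0775). The threshold of 0.10 was applied to the main fit alone. Without the 6 mice with high Alb, added after the data were seen, the member count was 0 and that over all genes 7; fewer mice were tested, and the cause was not otherwise tested. The replicate block also left 3 members (adjusted p = 0.0464, 0.0403 and 0.0382 for Kera, Fmod and Chad) and 213 of all genes, against 249, and changed no call of a member. Same-numbered mice correlated between -0.08 and 0.25, over 0.1 in 4 of 8 pairs, against a median of -0.021 for other numbers. With the block the SE of Lum was 0.14 against 0.25, and that of Aspn 0.13 against 0.19. That of Kera was 0.26 against 0.24, and that of Omd 0.22 against 0.19. The labels state no pairing, so the main fit used none, and whether the numbers pair the mice was not settled. The count over all genes was 137 with no filter, where more genes were tested, and 505 at an adjusted p under 0.10. Without 1 mouse it ran from 107 (deletion mouse 6) to 680 (deletion mouse 8). It was also under 249 by more than 1.5 times without controls 1, 2, 3, 5, 6 and 7 and deletion mice 1, 2, 5 and 7, and the cause was not tested. Ogn, near 0 throughout, turned to -0.045 with centred arrays and -0.00050 with array weights and ran from -0.082 to 0.14 without 1 mouse, and Omd ran from -0.19 to 0.041. Leaving out the mice with Alb above their array median, set beforehand, was not run, since 14 of 16 mice lay above it and 1 mouse per group would remain.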
